A study of Homo sapiens with 18 samples.

Results

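The subject here is how the transcriptional response to 10 Gy of ionising radiation differed between mixed cultures of MCF10A and HCT116 cells and HCT116 cells grown alone. It was measured gene by gene as the change with irradiation in the mixed cultures minus the change with irradiation in HCT116, and all gene symbols of the count tables were eligible. Of the 18 libraries of the series, 12 enter this contrast, 3 in each of 4 groups: HCT116 without irradiation, HCT116 after 10 Gy, mixed without irradiation and mixed after 10 Gy. A positive value means that the response was higher in the mixed cultures, through a stronger rise or a smaller fall.

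HCT116 is a human colon carcinoma line, and the series describes the cells used as unlabelled and p53-null. MCF10A is a non-tumorigenic human breast epithelial line, here with an H2B-GFP label. The mixed cultures were described as 50-50 co-cultures of the same cells, and 3 biological replicates per group were stated. The titles place the samples at day 2, the series text places RNA harvest at 72 h after irradiation, and the tables cannot settle which holds. Each line had its own medium when grown alone, the MCF10A medium with horse serum, EGF, hydrocortisone, cholera toxin and insulin, the HCT116 medium with fetal bovine serum. The medium of the mixed cultures was not stated, so an effect of medium and an effect of the other cells cannot be told apart. In bulk RNA, fewer cells of a type and less RNA per cell cannot be told apart either.

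Ionising radiation breaks DNA, halts the cell cycle and induces genes of the p53 pathway. In the days that follow, many epithelial cells also switch on interferon-stimulated genes, whose promoters carry a response element bound by a complex that contains STAT2 and IRF9. These genes encode antiviral proteins such as the OAS enzymes, which make oligoadenylates on double-stranded RNA, and RIG-I, which senses viral RNA.

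The 12 libraries held between 25737818 and 40839835 counts. Values per library are given as CPM, counts scaled to the library's total, and tests are edgeR quasi-likelihood tests with Benjamini-Hochberg adjustment over 18072 genes, called at an adjusted p under 0.05. Expression of 123 to 140 genes found in MCF10A and nearly absent from HCT116 put the MCF10A share of RNA in the mixed cultures at 0.498%, 0.368% and 0.395% without irradiation and at 1.24%, 1.17% and 1.27% after it, far below the described 50%. A share from non-negative least squares averaged 1.02% and 3.63%. The 21 basal mammary markers summed to 1353 to 1467 CPM in mixed libraries without irradiation and 2461 to 2766 CPM after it, against 1227 to 1383 and 2006 to 2266 CPM in HCT116 and 13392 to 23650 CPM in MCF10A, and TP63, TGFBI and MME were at 0 in non-irradiated HCT116. FN1 alone stood at 42.3 CPM in irradiated HCT116 and 357 CPM in irradiated mixed cultures. Of 24 intestinal markers, CDX1, ASCL2, CEACAM5, CEACAM6 and MUC13 were at 0 in non-irradiated HCT116. Summed, the 24 stood at 3336 to 3659 CPM in HCT116 before and 7817 to 8756 CPM after irradiation. In mixed cultures the sums were lower, at 2857 to 2910 and 5503 to 5921 CPM. KRT8, described below, makes up a large part of these sums. Of the 15 intestinal markers tested, 6 rose and 2 fell with irradiation in HCT116, and 6 rose and 4 fell in mixed cultures. CDKN1A, the p53-induced cell cycle inhibitor, stood 5.01 times higher after irradiation in the line described as p53-null.

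Between the cultures the responses differed for 150 of 18072 genes, 0.830% of those tested. The response was higher in the mixed cultures for 123 genes (0.681%) and lower for 27 (0.149%), and the median over all tested genes was 0.02 on the log2 scale. The responses themselves were broad: 9100 genes changed with irradiation in HCT116 (50.4%) and 8296 in the mixed cultures (45.9%). Mixed and HCT116 cultures differed in 641 genes before irradiation (3.55%) and in 1111 after it (6.15%). Across the tested genes the 2 responses, which share no library, correlated (Pearson's r 0.73, Spearman's rho 0.77). This is a description, since genes are not independent replicates. DESeq2 called 327 genes, of which 61.5% were higher in the mixed cultures, against 82.0% of the 150.

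The count depended on single libraries. It was 64 without mixed irradiated replicate 3, 69 without mixed non-irradiated replicate 1, 78, 83 and 88 without HCT116 irradiated replicates 2, 3 and 1, 83 without HCT116 non-irradiated replicate 1, and 85 and 93 without mixed irradiated replicates 2 and 1. Of the 150 genes, 50 were called in each of the 12 fits that left out 1 library. For each gene below, the number of those 12 fits that called it is given.

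**Figure D1:**
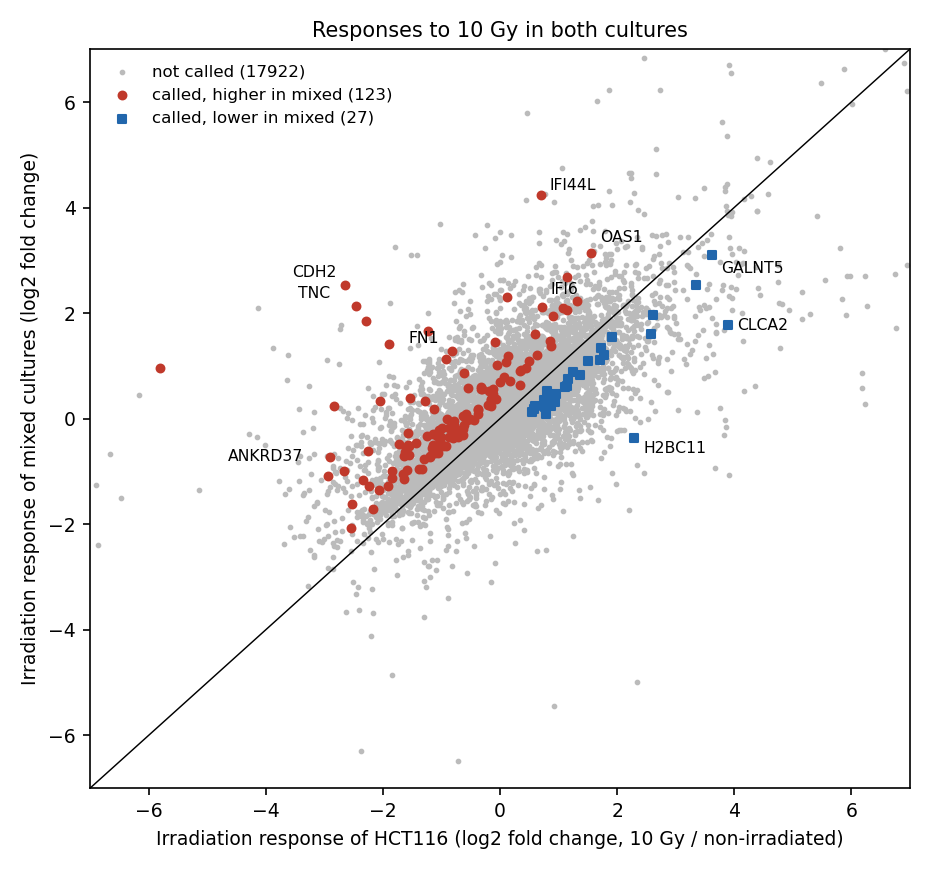
Each point is a gene, with its log2 fold change after 10 Gy in HCT116 on the x axis and in mixed cultures on the y axis, and the line marks equal responses. The 123 genes with a higher response in the mixed cultures lie above the line, 100 of them left of 0, and the 27 with a lower response lie below it and right of 0; 12 genes fall outside the axes.

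Most genes with a higher response in the mixed cultures were genes that declined in HCT116 and declined less, or not at all, in the mixed cultures. Of these 123 genes, 90 fell in HCT116 by the test (26.1% of all genes did), 16 rose (24.3%) and 17 did not pass. In the mixed cultures 51 fell (22.9% of all genes did), 45 rose (23.0%) and 27 did not pass. Their median change was -0.87 in HCT116 and -0.05 in the mixed cultures. The genes with a lower response showed the mirror pattern, since all 27 rose in HCT116, by a median of 1.16. In the mixed cultures 23 rose, with a median over the 27 of 0.61. Both patterns are partly built in, because the genes were selected on a difference from which the HCT116 response is subtracted.

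To set these values beside the MCF10A RNA in the mixed libraries, each gene's expected level was computed as the sum of its monoculture levels weighted by the MCF10A share. It assumes that each line kept its monoculture level of the gene in co-culture, which was not tested. Sums given below for single genes use the smaller share, 0.420% and 1.23%. For a gene higher in MCF10A, the share from least squares gives a higher sum. This weighted sum gave at least 50% of the observed difference for 11 of the 123 genes with a higher response (20 with the share from least squares), and for 0 of the 27 with a lower response. A total of 80 of the 123 had an MCF10A level of at most 2 times the HCT116 level in both treatments, as did 87.3% of all tested genes. For 0 of these 80 did the weighted sum reach 50%. That limit and the small MCF10A share fixed this outcome in advance, so nothing is drawn from it.

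Interferon-stimulated genes formed the group with the most calls. Of 42 listed genes 41 were tested, and 10 of them (24.4%, against 0.681% of all genes) had a higher response in the mixed cultures. The 10 were IFI6, IFI44L, OAS3, OAS1, IFIT1, OASL, IFI44, IFI27, MX1 and OAS2. The median difference of the 41 was 0.43, with a median response of 0.58 in HCT116 and 1.18 in the mixed cultures. Irradiation raised 26 of the 41 in HCT116, where 24.3% of all genes rose, and 39 of 41 in the mixed cultures, where 23.0% rose. Before irradiation 10 of the 41 were lower in mixed cultures than in HCT116 (1.78% of all genes were), and after irradiation 12 were higher (4.35%) and 1 was lower (1.80%). Summed over the list, expression was 1446 to 1552 CPM in HCT116 before and 2206 to 2254 CPM after irradiation, and 1295 to 1389 and 2409 to 2484 CPM in the mixed cultures. The order of the cultures thus turned over with irradiation, without overlap in either treatment. In MCF10A alone the sum was 1266 to 1430 CPM over both treatments, below every irradiated library of the contrast. Leaving out 1 library gave 6 to 12 calls in this list and a median of 0.35 to 0.48; the count was 6 without HCT116 non-irradiated replicate 1, mixed non-irradiated replicate 1 or mixed irradiated replicate 2.

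IFI6, an interferon-induced mitochondrial protein, was at 16.4, 12.6 and 13.4 CPM in non-irradiated and 22.5, 24.3 and 22.1 CPM in irradiated HCT116, and at 8.66, 9.49 and 7.70 and then 36.3, 38.1 and 38.3 CPM in mixed cultures. The mixed libraries were below all HCT116 libraries before irradiation and above all of them after it. The response was 1.63-fold in HCT116 and 4.36-fold in mixed cultures, a log2 difference of 1.39 (SE 0.15, adjusted p 3.16e-06, 12 of 12 fits). MCF10A alone had 2.16 ± 0.72 CPM before and 6.40 ± 0.65 CPM after irradiation (SD, n = 3), so that its weighted part of the mixed level was 0.078 CPM after irradiation.

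IFIT1, which binds viral RNA lacking a proper cap, went from 18.8, 18.6 and 18.0 to 39.1, 42.9 and 39.5 CPM in HCT116 and from 14.6, 18.95 and 12.8 to 63.4, 66.5 and 64.2 CPM in mixed cultures. Non-irradiated libraries of both cultures overlapped, and irradiated ones did not (log2 difference 0.91, SE 0.14, adjusted p 0.000626, 12 of 12). OAS1 showed the opposite arrangement. It was at 3.56, 3.33 and 3.08 CPM in HCT116 and 1.00, 1.07 and 1.00 CPM in mixed cultures without irradiation, and at 8.87, 9.04 and 11.3 and 8.42, 9.76 and 9.41 CPM after it. The cultures overlapped only after irradiation, and the difference of 1.59 (SE 0.24, adjusted p 0.000538, 12 of 12) came with a lower starting level in the mixed cultures.

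OAS3, the longest of the OAS enzymes, did not pass the test in HCT116, with 133, 122 and 128 CPM before and 113, 121 and 117 CPM after irradiation. In mixed cultures it rose from 123, 125 and 112 to 154, 175 and 174 CPM, above every other library (difference 0.59, SE 0.09, adjusted p 0.000481, 12 of 12). OASL, an OAS-like protein without synthetase activity, rose 2.49-fold in HCT116 and 4.79-fold in mixed cultures (difference 0.92, SE 0.18, adjusted p 0.00796, 10 of 12). IFI44 rose 2.20-fold and 6.39-fold (difference 1.54, SE 0.31, adjusted p 0.0113, 11 of 12).

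IFI44L, a paralogue of IFI44 whose reads may partly be shared with it, had the largest fitted difference of the group. In HCT116 it stood at 0.347, 0.311 and 0.217 CPM before and 0.518, 0.539 and 0.350 CPM after irradiation, and in mixed cultures at 0.859, 0.404 and 0.417 and then 11.1, 10.2 and 9.91 CPM. All irradiated mixed libraries lay far above the rest (difference 3.53, SE 0.49, adjusted p 0.000203, 12 of 12). MCF10A expressed it at 18.7 ± 4.23 CPM after irradiation (SD, n = 3), and the irradiated mixed level was 55.6% of that, while the MCF10A share of RNA was 1.23%. The weighted sum gave 0.693 CPM for the irradiated mixed cultures, against 10.4 ± 0.65 CPM measured (SD, n = 3). Bulk counts do not tell which of the cells this RNA came from.

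The remaining calls of the list were less stable. MX1, a GTPase that blocks viral replication, was at 2.03, 2.55 and 2.14 and then 2.28, 2.23 and 1.79 CPM in HCT116, with overlap, and at 1.32, 0.865 and 1.33 and then 3.51, 3.47 and 2.76 CPM in mixed cultures, without overlap. Its difference of 1.53 (adjusted p 0.0377) was called in 1 of the 12 fits, that of OAS2 (2.19, adjusted p 0.0453) in 2 and that of IFI27 (1.04, adjusted p 0.0226) in 3. Some listed genes fell just short of a call. ISG15, a ubiquitin-like modifier, had a difference of 0.41 (adjusted p 0.0985), IFIT3 of 0.65 (adjusted p 0.0665) and BST2, a virus tether at the cell surface, of 0.65 (adjusted p 0.0678). Others were near 0, such as IFIT5 at -0.08 (adjusted p 0.829) and ISG20 at 0.05 (adjusted p 0.959). Of the 41 estimates, 37 were above 0.

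**Figure D2:**
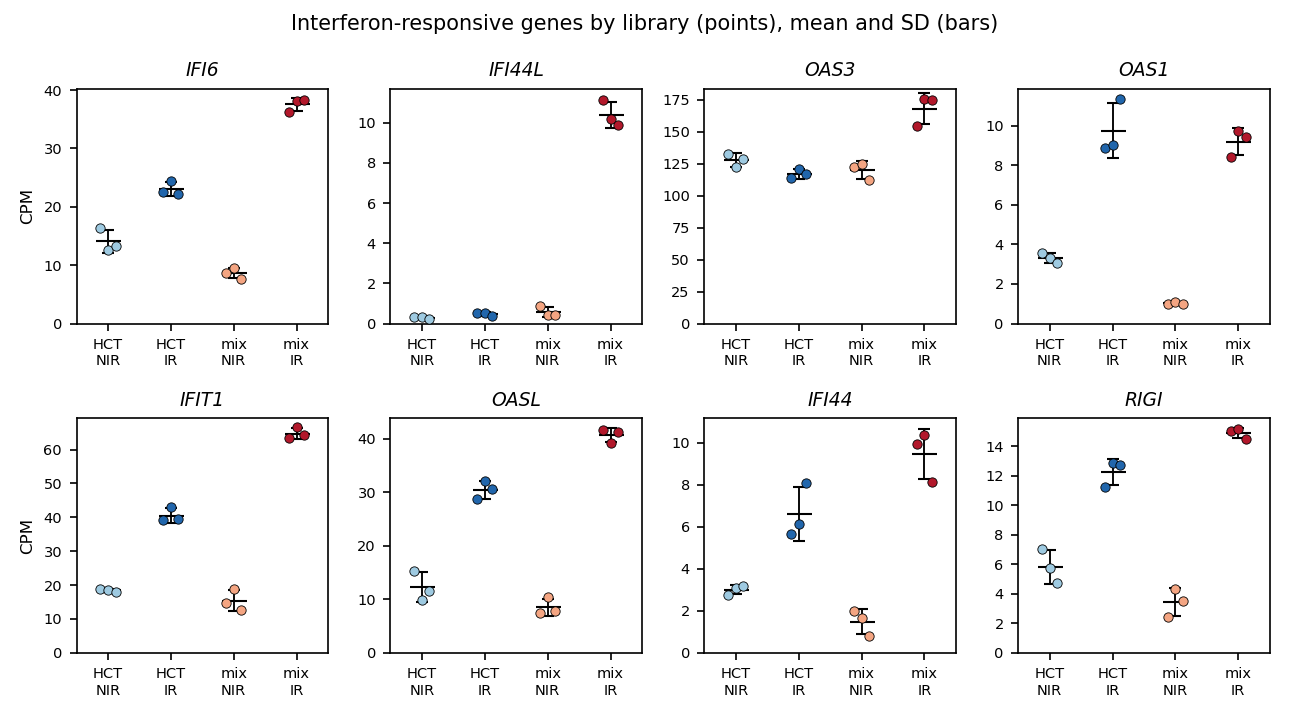
Expression of 8 interferon-responsive genes in CPM (y axis, from 0), by library, in HCT116 (HCT) and mixed cultures (mix) without (NIR) or with 10 Gy (IR); horizontal bars are means and whiskers SD over 3 libraries. For IFI6 the mixed libraries lie below HCT116 before irradiation, at 7.70 to 9.49 CPM, and above it afterwards, at 36.3 to 38.3 CPM.

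Promoters of the called genes were read for the core of the interferon-stimulated response element, because these genes moved together. The letters were GAAA, any 2 bases and GAAA again, or TTTC, any 2 bases and TTTC on the other strand, searched in RefSeq windows (GRCh38.p14) from 250 bases before to 50 bases after each start site. Of the 41 tested genes 33 had a window and 24 of these held the letters (72.7%), against 3.65% of all 27305 windows and 2.86% of the 13030 windows of tested genes. Among the called genes 7 of 8 windows held them, and among the uncalled 17 of 25. Printed here are stretches of the promoters of 4 called genes, 5′ to 3′ on the strand of the gene, with each match in capitals. The IFI6 stretch lies at chr1:27672246-27672378 on the minus strand, IFIT1 at chr10:89392477-89392559, IFI27 at chr14:94110598-94110680 and IFI44 at chr1:78649741-78649788, the latter 3 on the plus strand.
IFI6: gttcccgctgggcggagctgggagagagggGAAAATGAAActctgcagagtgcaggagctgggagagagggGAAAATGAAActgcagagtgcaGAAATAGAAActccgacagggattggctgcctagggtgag
IFIT1: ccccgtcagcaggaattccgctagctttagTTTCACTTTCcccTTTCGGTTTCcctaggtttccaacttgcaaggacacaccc
IFI27: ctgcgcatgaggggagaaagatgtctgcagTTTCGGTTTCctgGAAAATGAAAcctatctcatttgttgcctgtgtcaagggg
IFI44: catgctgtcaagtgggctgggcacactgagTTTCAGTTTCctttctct
The matches begin 156, 115 and 93 bases before the start site in IFI6, 116 and 103 in IFIT1, 108 and 95 in IFI27 and 18 in IFI44. A match describes the letters and is not evidence of binding, and OAS1 and RIGI had no match in this window. Of all genes with a higher response 10 of 94 windows held the letters, and 7 of these 10 were the called interferon-stimulated genes just counted. Of those with a lower response 2 of 21 did.

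Among 23 tested genes of interferon signalling and RNA sensing, 3 were called (13.0%, against 0.830% of all genes). Of these, 2 had a higher response in mixed cultures and 1 a lower one. One of the genes with a higher response was RIGI, which encodes the sensor RIG-I. It rose 2.10-fold in HCT116 and 4.36-fold in mixed cultures (difference 1.02, adjusted p 0.0250, 3 of 12).

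TLR3, an endosomal receptor for double-stranded RNA, moved the other way. It rose from 4.63, 4.94 and 4.78 to 28.9, 27.6 and 31.4 CPM in HCT116 and from 7.16, 5.22 and 5.78 to 22.02, 24.3 and 24.7 CPM in mixed cultures. Neither treatment showed overlap between the cultures, and the difference was -0.66 (SE 0.16, adjusted p 0.0494, 2 of 12). Receptor genes were not called: the difference was -0.25 for IFNAR1 (adjusted p 0.199), 0.29 for IFNAR2 (0.725) and 0.59 for IFNLR1 (0.0855). STAT2 had 0.30 (adjusted p 0.154), IRF9, its partner, 0.59 (0.282) and IRF7, which drives type I interferon genes, 0.83 (0.0700). The edgeR test called 0 of 15 genes of MHC class I presentation (1 at an unadjusted p under 0.05, 0 by DESeq2 and 0 by limma-voom). It called 0 of 23 NF-kappaB targets (3 unadjusted, 2 by DESeq2 and 0 by limma-voom).

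Matrix genes made up another group of calls, and these were mostly genes with high MCF10A expression. Of 30 tested matricellular and TGF-beta target genes, 6 had a higher response in mixed cultures (20.0%, against 0.681% of all genes), and the median difference was 0.45. The MCF10A share rose from 0.420 ± 0.068% to 1.23 ± 0.051% with irradiation (SD, n = 3). Of the 30 genes, 16 were already higher in mixed than in HCT116 cultures before irradiation (1.77% of all genes) and 22 after it (4.35%). COL4A1, COL4A2, INHBA and, after irradiation, TNC are among the members of this list that meet the rule for the genes that give the share. The share is therefore not independent of the list. Leaving out 1 library gave 3 to 6 higher calls in this list and a median of 0.29 to 0.48; the count was 3 without HCT116 non-irradiated replicate 3, HCT116 irradiated replicate 2 or 3, or mixed irradiated replicate 1.

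FN1, which encodes the matrix glycoprotein fibronectin, was at 97.4, 62.7 and 64.2 and then 39.6, 44.2 and 43.2 CPM in HCT116, and at 141, 148 and 150 and then 389, 343 and 340 CPM in mixed cultures. It fell in HCT116 and rose in mixed cultures, with no overlap in either treatment, and had the smallest adjusted p of the contrast (difference 2.09, SE 0.14, adjusted p 1.25e-09, 12 of 12). MCF10A had 1325 ± 41.1 CPM before and 5769 ± 362 CPM after irradiation (SD, n = 3). The weighted sum gave 80.0 and 113 CPM for the mixed cultures, below every mixed library of the same treatment. It rose with irradiation while HCT116 fell. The larger share from least squares, 1.02% and 3.63%, would raise both values of the sum.

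LAMB3, which encodes a chain of a laminin that anchors epithelia to the basement membrane, rose in both cultures, 1.40-fold and 2.17-fold (difference 0.60, adjusted p 0.0394, 4 of 12), with a weighted sum of 103 CPM against 121 ± 12.2 CPM measured after irradiation (SD, n = 3).

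TNC, the matricellular protein tenascin-C, was nearly absent from HCT116, with 12 counts over the 3 non-irradiated and 2 over the 3 irradiated libraries. Mixed cultures had 2.86, 3.55 and 2.81 and then 16.7, 12.5 and 11.9 CPM, higher in every irradiated library. The fitted difference of 4.59 (adjusted p 0.0243, 7 of 12) depends on how so few counts are treated and is no bound. MCF10A had 79.9 ± 4.13 CPM after irradiation, and the irradiated mixed level was 17.1% of it, above the share of 1.23%. TNC is itself among the genes that give this share. THBS1, an inhibitor of angiogenesis, rose 1.82-fold and 2.62-fold (difference 0.51, adjusted p 0.0243, 3 of 12).

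TAGLN, an actin-binding protein of contractile cells, differed from the others in its MCF10A level. It was at 7.67, 7.09 and 7.204 and then 8.23, 6.10 and 9.32 CPM in HCT116 and at 7.37, 7.24 and 6.53 and then 16.2, 13.4 and 15.1 CPM in mixed cultures. Only the irradiated mixed libraries stood apart (difference 0.96, SE 0.20, adjusted p 0.0143, 8 of 12). MCF10A alone had 14.8 ± 1.01 CPM after irradiation (SD, n = 3), so that its weighted part was 0.181 CPM.

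Of the 20 tested basal mammary markers 3 had a higher response (15.0%, against 0.681% of all genes), FN1, FBN1 and VIM. The median difference of the list was -0.06. VIM, an intermediate filament protein of mesenchymal and basal cells, was at 0.955, 0.746 and 1.19 and then 0.305, 0.196 and 0.272 CPM in HCT116 and at 1.72, 1.76 and 1.53 and then 5.87, 3.69 and 3.86 CPM in mixed cultures. It fell in HCT116 and rose in mixed cultures, without overlap (difference 3.31, SE 0.46, adjusted p 0.000209, 12 of 12). Its weighted sum, 3.33 and 5.89 CPM, was above every mixed library of the same treatment, in contrast to FN1. FBN1, the microfibril protein fibrillin-1, fell in HCT116 (-2.04) and did not pass the test in mixed cultures (0.34), a difference of 2.38 (SE 0.25, adjusted p 3.16e-06, 12 of 12).

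TPM1, a tropomyosin of actin filaments, fell from 31.9, 29.0 and 24.8 to 19.6, 19.2 and 19.8 CPM in HCT116 and rose from 32.3, 29.8 and 31.6 to 52.6, 41.2 and 47.0 CPM in mixed cultures. Before irradiation the cultures overlapped and afterwards they did not (difference 1.11, SE 0.13, adjusted p 2.38e-05, 12 of 12), and the weighted sum after irradiation was 21.7 CPM. AMIGO2, a cell adhesion protein, fell to 0.408 times its level in HCT116 and did not pass the test in mixed cultures (difference 1.603, SE 0.21, adjusted p 0.000154, 12 of 12). Its weighted sum after irradiation was 4.69 CPM, against 13.7, 12.7 and 13.1 CPM measured, and this sum too would be higher with the share from least squares.

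**Figure D3:**
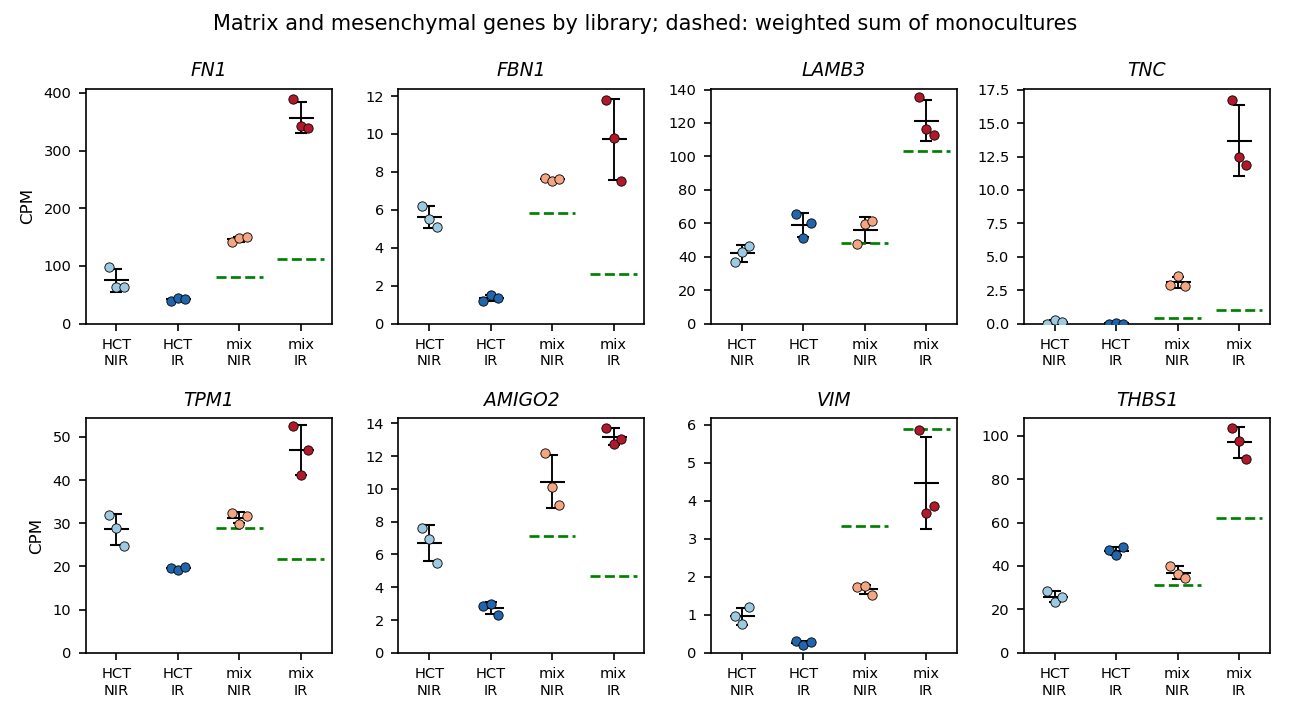
Expression in CPM (y axis, from 0) of 8 matrix, adhesion and cytoskeletal genes by library in HCT116 (HCT) and mixed cultures (mix), without (NIR) or with 10 Gy (IR); bars are means, whiskers SD over 3 libraries, and dashed lines the sum of monoculture means weighted by the MCF10A share. FN1 lies above the dashed lines, at 357 against 113 CPM after irradiation, and VIM at or below them.

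Immediate early genes are switched on within minutes by growth factor signalling. Of 18 tested, EGR1, FOS and KLF6 had a higher response in mixed cultures (3 of 18, 16.7%, against 0.681% of all genes), 17 estimates were above 0 and the median was 0.31. Leaving out 1 library gave 1 to 4 calls, with 1 call without HCT116 irradiated replicate 2, mixed non-irradiated replicate 1 or mixed irradiated replicate 1. EGR1, a zinc finger transcription factor, was at 218, 196 and 210 and then 74.2, 67.6 and 60.7 CPM in HCT116, and at 97.1, 157 and 115 and then 85.7, 83.9 and 71.5 CPM in mixed cultures. The cultures differed before irradiation, when all mixed libraries were lower, and overlapped after it (difference 0.98, SE 0.16, adjusted p 0.000961, 12 of 12).

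FOS, a subunit of the AP-1 factor, followed the same course, from 21.99, 16.2 and 16.8 to 6.52, 4.41 and 7.15 CPM in HCT116 and from 8.87, 10.5 and 8.73 to 6.75, 5.69 and 6.79 CPM in mixed cultures (difference 1.05, SE 0.22, adjusted p 0.0168, 7 of 12). KLF6, a zinc finger factor, differed the other way round: both cultures overlapped before irradiation, and the irradiated mixed libraries were higher, at 132 to 154 CPM against 91.4 to 96.2 CPM (difference 0.50, adjusted p 0.0190, 5 of 12). Another 3 calls were picked after their values were seen. ZFP36, which destabilises AU-rich mRNAs, had a difference of 0.81 (adjusted p 0.00915, 10 of 12), the growth factor gene PDGFA 0.92 (adjusted p 0.01003, 9 of 12) and the Notch target HES1 0.90 (adjusted p 0.0290, 3 of 12), and each was lower in mixed than in HCT116 cultures before irradiation.

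ANKRD37, a hypoxia-inducible ankyrin protein, had the largest called difference among genes of at least 10 CPM that were not higher in MCF10A. It was at 17.8, 16.8 and 20.8 and then 3.11, 1.54 and 2.60 CPM in HCT116, and at 4.58, 5.51 and 8.34 and then 4.11, 2.33 and 2.35 CPM in mixed cultures. Here too the starting level was lower in the mixed cultures and the irradiated libraries overlapped (difference 1.85, SE 0.33, adjusted p 0.00377, 12 of 12). It was the only call among 34 hypoxia and glycolysis genes (2.94%, against 0.681% of all genes called higher), whose median difference was 0.10.

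In other genes the cultures overlapped before irradiation and parted after it. RGS9, a regulator of G-protein signalling, fell from 11.6, 12.1 and 10.7 to 2.04, 2.03 and 2.76 CPM in HCT116 and from 12.1, 12.7 and 10.3 to 4.31, 5.83 and 5.58 CPM in mixed cultures (difference 1.17, SE 0.22, adjusted p 0.00690, 12 of 12). The same held for PPFIA4, a liprin scaffold protein, which fell to 0.213 times its level in HCT116 and to 0.417 times in mixed cultures (difference 0.95, SE 0.16, adjusted p 0.00139, 12 of 12). The non-coding LINC00659 had the reverse arrangement, with 12.2, 10.8 and 13.5 and then 4.45, 3.89 and 3.92 CPM in HCT116 and 4.58, 8.68 and 6.00 and then 4.42, 4.52 and 4.75 CPM in mixed cultures. The cultures were apart before irradiation and overlapped after it (difference 1.05, adjusted p 0.0450, 1 of 12).

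NQO1, a quinone reductase and NRF2 target, fell from 562, 508 and 493 to 228, 219 and 245 CPM in HCT116 and from 466, 485 and 405 to 300, 313 and 322 CPM in mixed cultures. Mixed libraries were lower before and higher after irradiation, and neither treatment showed overlap (difference 0.62, SE 0.09, adjusted p 0.000331, 12 of 12). SLC7A11, the cystine transporter, was the other call among 20 tested NRF2 and metallothionein genes (difference 0.87, adjusted p 0.0290, 3 of 12). These 2 calls made up 10.0% of the list, against 0.681% of all genes called higher, and the list's median was 0.13.

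H2BC11, a gene of histone H2B, had the most negative called difference. In HCT116 it was at 0.174, 0.124 and 0.652 and then 1.71, 1.54 and 1.09 CPM, and in mixed cultures at 42.4, 40.7 and 34.97 and then 30.3, 31.1 and 31.4 CPM. It rose in HCT116 and fell in mixed cultures, with mixed libraries higher throughout (difference -2.66, SE 0.35, adjusted p 0.000135, 12 of 12). MCF10A, the line labelled with H2B-GFP, had 252 ± 14.7 CPM without irradiation (SD, n = 3), and the mixed level was 15.6% of that, against an MCF10A share of 0.420%; whether these counts came from the label was not tested. It was the only call among 18 tested clustered histone genes (0.149% of all genes were called lower), of which 13 rose in HCT116 (24.3% of all genes) and 9 in mixed cultures (23.0%). Their median difference was -0.63.

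Several genes rose strongly in HCT116 and less in mixed cultures. GALNT5, an enzyme that starts O-linked glycosylation, rose from 50.5, 54.7 and 52.7 to 640, 649 and 648 CPM in HCT116 and from 35.1, 36.7 and 37.3 to 351, 290 and 310 CPM in mixed cultures. Mixed libraries were lower in both treatments (difference -0.52, SE 0.09, adjusted p 0.00324, 12 of 12), and MCF10A alone had 0.137 ± 0.238 CPM without irradiation (SD, n = 3). ZBED2, a zinc finger protein, rose 5.92-fold and 3.06-fold (difference -0.98, SE 0.17, adjusted p 0.00225, 12 of 12). ABCA12, a lipid transporter of keratinocytes, rose 10.1-fold and 5.92-fold (difference -0.81, SE 0.17, adjusted p 0.0143, 11 of 12, the exception being the fit without mixed non-irradiated replicate 3).

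KRT8, a keratin of simple epithelia, rose from 1417, 1456 and 1472 to 4959, 4428 and 4887 CPM in HCT116 and from 1158, 1162 and 1167 to 3107, 2947 and 2861 CPM in mixed cultures. Mixed libraries were again lower in both treatments (difference -0.38, SE 0.07, adjusted p 0.00435, 12 of 12). It was the only call among 15 tested intestinal markers (6.67%, against 0.149% of all genes called lower), whose median was -0.11. CCND1, which encodes cyclin D1, rose 3.74-fold and 2.96-fold (difference -0.36, SE 0.07, adjusted p 0.00690, 12 of 12), while CD44, another Wnt target, had a higher response in mixed cultures (0.30, adjusted p 0.0445, 1 of 12).

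Most genes of the p53 pathway rose in both cultures. Of 31 tested targets, 28 rose in HCT116 (24.3% of all genes did) and 29 in mixed cultures (23.0%), and 2 had a lower response in mixed cultures (6.45%, against 0.149% of all genes). The median difference was -0.18, and 5 of 31 estimates were above 0. FAS, a death receptor, rose from 25.2, 29.2 and 24.0 to 78.8, 89.0 and 87.5 CPM in HCT116 and from 30.2, 25.4 and 30.8 to 62.5, 60.7 and 64.4 CPM in mixed cultures. The cultures overlapped before irradiation and not after it (difference -0.61, SE 0.11, adjusted p 0.00722, 12 of 12). TRIAP1, an inhibitor of apoptosis, had a difference of -0.51 (SE 0.10, adjusted p 0.01003, 12 of 12).

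CDKN1A, MDM2 and GDF15 were not called. CDKN1A rose from 275, 326 and 352 to 1688, 1585 and 1508 CPM in HCT116 and from 233, 270 and 235 to 1251, 1096 and 1090 CPM in mixed cultures. Mixed libraries were lower in both treatments, by 0.35 before and 0.48 after irradiation on the log2 scale, and the difference was -0.13 (SE 0.11, adjusted p 0.694). MDM2, the p53 ubiquitin ligase, had 0.18 (adjusted p 0.352) and the stress cytokine GDF15 0.21 (adjusted p 0.604).

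Further genes with a lower response were TAF3, a TFIID subunit, and SAV1, a Hippo pathway scaffold, with differences of -0.69 (adjusted p 0.0113) and -0.56 (adjusted p 0.000749), each in 12 of 12 fits. SAV1 rose from 76.7, 85.7 and 76.5 to 140, 137 and 129 CPM in HCT116 and from 87.7, 85.6 and 92.9 to 105, 105 and 102 CPM in mixed cultures, where only the irradiated libraries were apart from HCT116. SP6, GAS6, HAS3, BDNF, BORCS7 and PISD, with differences from -0.65 to -0.42, were called in 3 to 7 of the 12 fits. Among them, GAS6 is a ligand of TAM receptors, HAS3 a hyaluronan synthase and BDNF a neurotrophin.

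**Figure D4:**
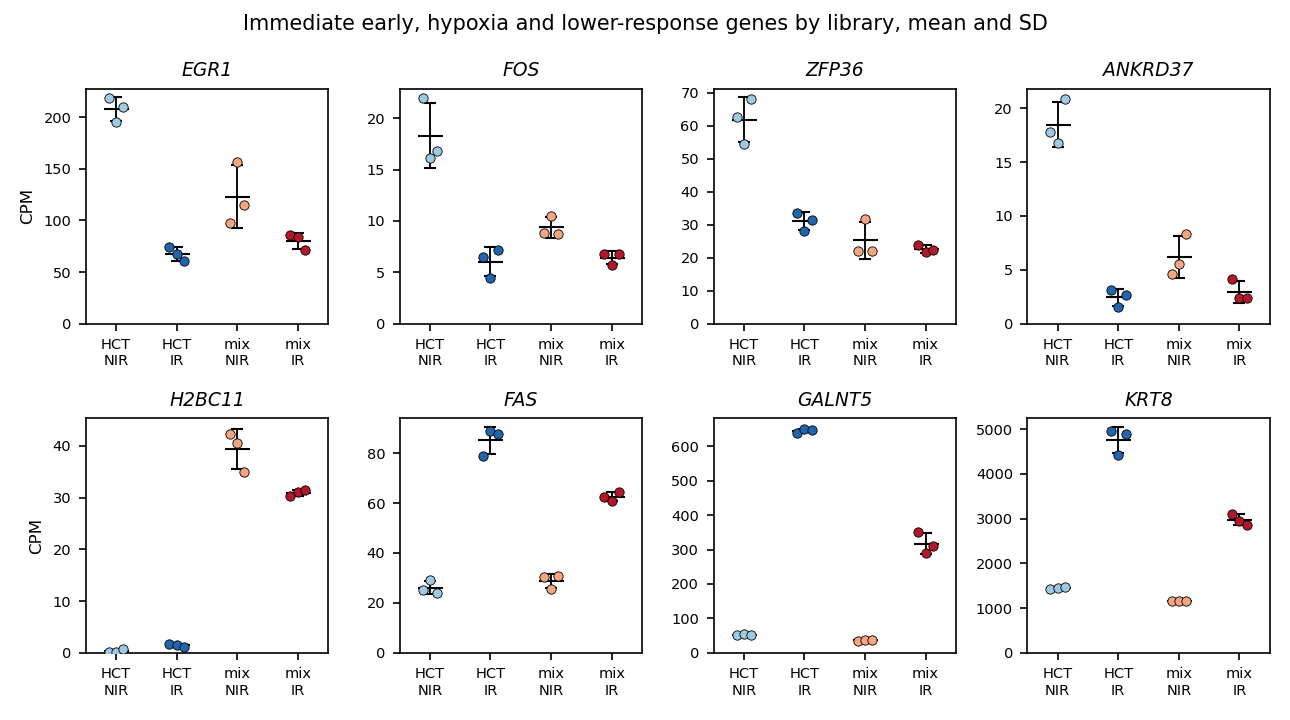
Expression in CPM (y axis, from 0) of 8 genes by library in HCT116 (HCT) and mixed cultures (mix), without (NIR) or with 10 Gy (IR); bars are means and whiskers SD over 3 libraries. EGR1, FOS, ZFP36 and ANKRD37 differ between cultures mainly before irradiation, and FAS only after it, when mixed libraries lie at 60.7 to 64.4 CPM and HCT116 at 78.8 to 89.0 CPM.

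Proliferation genes declined in both cultures with no called difference. Of 35 tested, 33 fell in HCT116 (26.1% of all genes did) and 34 in mixed cultures (22.9%), and 0 were called for the difference by edgeR (10 at an unadjusted p under 0.05, 2 by DESeq2, 1 by limma-voom). The median difference was 0.14 with 31 estimates above 0. After irradiation 23 of the 35 were higher in mixed cultures (4.35% of all genes were), and 2 were before it (1.77%). MKI67, the Ki-67 antigen, was at 1164, 1028 and 1070 and then 294, 305 and 308 CPM in HCT116 and at 1312, 1230 and 1267 and then 325, 400 and 373 CPM in mixed cultures. Mixed libraries were higher in both treatments and the difference was 0.03 (SE 0.09, adjusted p 0.930). TOP2A, which untangles replicated DNA, had 0.14 (SE 0.10, adjusted p 0.606).

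A few mitotic and growth genes outside that list were called and are named after their values were seen. IQGAP3, a scaffold linked to proliferation, fell from 114, 110 and 115 to 31.6, 28.2 and 30.3 CPM in HCT116 and from 103, 103 and 119 to 43.0, 46.9 and 45.6 CPM in mixed cultures (difference 0.62, SE 0.10, adjusted p 0.000749, 12 of 12). The irradiated mixed libraries were all higher. The kinesin gene KIFC1 (0.47, adjusted p 0.00798, 9 of 12) and TROAP, a spindle protein (0.61, adjusted p 0.00736, 11 of 12), were arranged in the same way.

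MT-ND2, a subunit of complex I, was the only call among 13 mitochondrially encoded genes (7.69%, against 0.149% of all genes called lower). Its difference was -0.28 (adjusted p 0.0477, 6 of 12). The mitochondrial share of counts was 8.42 to 8.75% and 11.5 to 12.3% in HCT116 and 8.37 to 8.73% and 12.0 to 12.7% in mixed cultures. The 33 genes of cholesterol and fatty acid synthesis, 29 nuclear-encoded respiratory chain genes, 20 keratinocyte, 15 glucocorticoid-responsive and 13 heat shock genes held 0 calls by edgeR, with medians between -0.10 and 0.18. At an unadjusted p under 0.05 these lists held 9, 2, 2, 4 and 2 genes, DESeq2 called 1, 0, 0, 1 and 0, and limma-voom 0 in each.

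**Figure D5:**
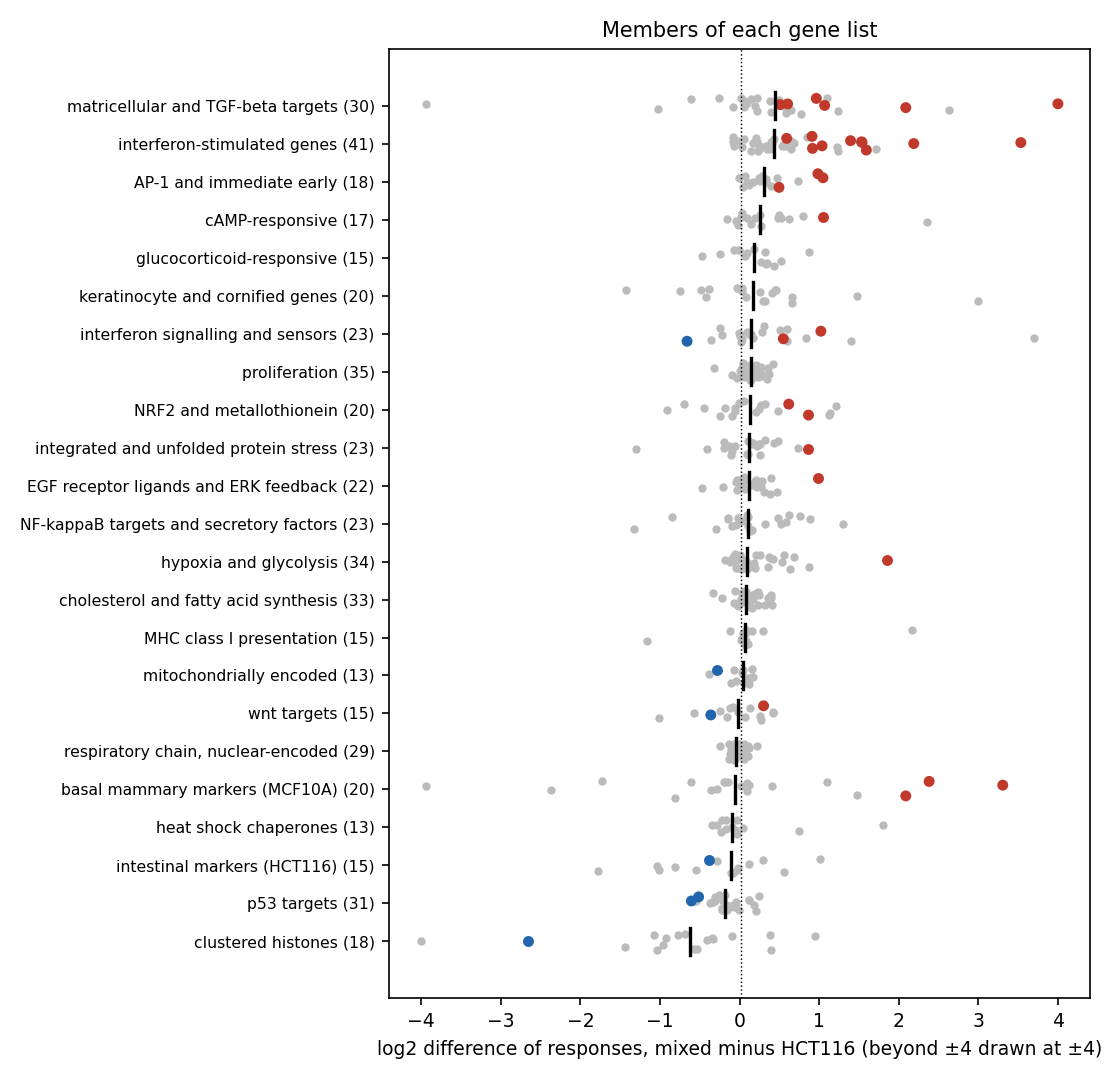
Each row is a gene list with its number of tested members, each point a member's log2 difference of responses (mixed minus HCT116, x axis), and the black bar the list's median; red points had a higher and blue points a lower response at an adjusted p under 0.05. The dotted line is the median of all tested genes, 0.02, and the matrix and interferon-stimulated lists lie highest, with medians of 0.45 and 0.43.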

How the data were processed

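RNA was prepared with a stranded poly(A) kit, per the labels' protocols, and the authors deposited raw counts per gene symbol, 1 table per library, without normalization. The submitters' processing notes list fastp, STAR, featureCounts and GRCh38, with no versions or roles. The tables list 40916 symbols, of which 10180 had no counts. Of values from 1 to 10, 68.3% were even, so a fit with counts halved was among the alternatives.

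Libraries were grouped by their titles. The 12 libraries of the 4 groups were fitted together in edgeR 4.0.16 (R 4.3.3) with TMM scaling, filterByExpr, a group-means model and 2-sided quasi-likelihood tests, adjusted by Benjamini-Hochberg over 18072 genes. The contrast and its 4 component comparisons come from this fit and share libraries. Scripts were tested on simulated data. CPM used each library's total. The MCF10A share is the median, over genes of at least 20 CPM in 1 line and under 1 CPM in each library of the other, of the mixed level over the monoculture level, scaled to sum to 1 over both lines. Alternatives included DESeq2 1.42.0 and limma 3.58.1.

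Named genes were the 10 largest called differences in each direction among genes of at least 10 CPM in a group, the same among genes not over 2 times higher in MCF10A, up to 4 called members of each list and a few preset genes; 4 of these genes are counted in the totals and not reported here. Outside these rules, other called members of the interferon and matrix lists are named too, as are a few genes picked after their values were seen. The members and lists were chosen with earlier results of these data known. Replicates differed by more than sampling noise (chi-squared per gene 2.56 to 6.98), so no library was counted as a copy. Same-numbered libraries did not deviate together.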

Additional observations from a re-analysis of the deposited data

Results flagged for a closer look

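The edgeR quasi-likelihood test of the difference, mixed response minus HCT116 response, singled out 41 genes chosen by the naming rules above. All had an adjusted p under 0.05. Called genes named outside those rules, such as IFIT1, OASL, IFI44, MX1 and IQGAP3, are not among the 41. Values are log2 differences.

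Among interferon genes these were IFI44L (3.53), OAS1 (1.59), IFI6 (1.39), IFI27 (1.04), RIGI (1.02), OAS3 (0.59) and TLR3 (-0.66). Matrix and cytoskeletal genes were TNC (4.59), VIM (3.31), FBN1 (2.38), FN1 (2.09), AMIGO2 (1.603), TPM1 (1.11), TAGLN (0.96) and CD44 (0.30).

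Other genes with a higher response were ANKRD37 (1.85), RGS9 (1.17), FOS (1.05), LINC00659 (1.05), EGR1 (0.98), PPFIA4 (0.95), SLC7A11 (0.87), NQO1 (0.62) and KLF6 (0.50). With a lower response there were H2BC11 (-2.66), ZBED2 (-0.98), ABCA12 (-0.81), TAF3 (-0.69), SP6 (-0.65), GAS6 (-0.63), FAS (-0.61), HAS3 (-0.58), SAV1 (-0.56), BDNF (-0.55), BORCS7 (-0.53), GALNT5 (-0.52), TRIAP1 (-0.51), PISD (-0.42), KRT8 (-0.38), CCND1 (-0.36) and MT-ND2 (-0.28).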

How the results depend on the processing

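Called genes for the difference numbered 150, and 336 without a filter on low counts, 327 with DESeq2 and 69 when only genes not higher in MCF10A were tested. Fits that left out 1 library gave 64 to 197, and those without a replicate number in all groups 45 to 50. The other scalings, filters and tools run, with counts halved or all 18 libraries, stayed within 1.5 times the 150. Mixed against HCT116 gave 1012 genes with DESeq2 before irradiation and 740 of the genes not higher in MCF10A after it, with ranges of 237 to 713 and 358 to 1228 when replicates were left out. None of the 41 named called genes changed direction in any alternative run. Replicate numbers did not pair the libraries: residual correlations of same-numbered libraries lay between -0.05 and 0.10 over 18 pairs, and 4 of 12 libraries correlated best with their own number. With a replicate block 125 genes were called, and 36 of the 41 called named genes kept the call. TLR3, CD44, PISD, MT-ND2 and LINC00659 each lost the call in several alternatives, and the cause was not tested. With 3 libraries per group, and 0.420% and 1.23% of RNA from MCF10A, low genes such as TNC rest on few counts in HCT116.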
